A study of Mus musculus with 9 samples.

Results

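The vitamin-treated state was set against the unstimulated macrophage in 6 of the 9 RNA-seq libraries of the series, 3 from cells given RANKL with vitamins D and K (RANKL + Vit D + K group) and 3 from the PBS group, chosen by their labels and compared across all genes. The cells were primary bone marrow-derived macrophages (BMDMs), grown from the marrow of 10-week-old C57BL/6J mice, for which the labels name no transgene or deletion. Every group was kept in macrophage colony-stimulating factor (M-CSF) at 20 ng/ml and collected after 48 h. Cells of the vitamin group were given RANKL at 100 ng/ml with vitamin D (calcitriol) at 1000 nM and vitamin K (menaquinone-4, MK4) at 20 µM, as the labels give the doses, while the study's methods give 40 µM for MK4. The PBS group received no RANKL and no vitamin, and the RANKL group, used here to say which differences RANKL alone also made, received RANKL at 100 ng/ml. No group had the vitamins without RANKL or 1 vitamin alone, so the shares of RANKL, vitamin D and vitamin K in a difference from PBS cannot be told apart beyond what the RANKL group shows. The labels mention a vehicle without saying which cultures had it. The methods speak of pooled RNA, and nothing says that the 3 libraries of a group came from separate animals, so p-values measure the spread between libraries.

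M-CSF keeps macrophages alive, and RANKL, binding RANK on their surface, drives them through NF-kB, c-Fos and NFATc1 to fuse into osteoclasts, the cells that resorb bone with acid and proteases. Calcitriol acts through the vitamin D receptor, a nuclear receptor that pairs with RXR and switches on its own catabolic enzyme, CYP24A1. Vitamin K is a cofactor of the enzyme that gamma-carboxylates proteins such as GAS6, a ligand of the TAM receptors. ATF4 and CHOP are the transcription factors of the integrated stress response, which cells use against amino acid shortage, misfolded protein and other stresses. Type I interferon signalling holds a set of antiviral genes at a basal level in resting macrophages.

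The libraries held 65915112 to 68229647 counts each, and 17002 of the 28379 genes in the table had enough counts to be tested. Levels are given as FPKM, fragments scaled to transcript length and to the library's mapped fragments, in the order of replicates 1, 2 and 3. Differences are log2 fold changes from edgeR's quasi-likelihood test, and a gene is called at an adjusted p under 0.05. With 3 libraries on each side the smallest p of a permutation test is 0.1, so calls come from the model across all genes. The RANKL + Vit D + K libraries varied more among themselves than the others, with a biological coefficient of variation of 0.44 against 0.273 in the PBS group. Replicate 2 of the vitamin group stood apart. Its log2 CPM values (counts scaled to library size) correlated at 0.951 and 0.960 with the other vitamin libraries, which correlated at 0.975 with each other, and at 0.952 with RANKL replicate 2. It often lay between the other vitamin libraries and the RANKL or PBS libraries, and values with and without it are given where it changes a result.

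Against PBS, 6932 genes differed in the RANKL + Vit D + K group, 40.8% of those tested. Of these, 3368 were higher (19.8%) and 3564 lower (21.0%), and 1688 and 2239 of them by at least 2-fold. Over all tested genes the median log2 fold change was -0.04 and the median size of a change was 0.67. The 3 vitamin libraries lay wholly above or below the 3 PBS libraries for 53.1% of genes, against 35.7% for RANKL against PBS and 46.8% for the vitamins against RANKL. RANKL alone differed from PBS at 614 genes (3.61%), with a median size of change of 0.31. That count depends on single libraries, with 126 to 316 genes without any 1 of the PBS or RANKL libraries, 1903 without RANKL + Vit D + K replicate 2, 417 without RANKL + Vit D + K replicate 3 and 703 without RANKL + Vit D + K replicate 1. It was 1621 with DESeq2 and 1736 when only the 2 groups were fitted. The vitamin group differed from RANKL alone at 33.7% of genes (16.4% higher and 17.2% lower). Without RANKL + Vit D + K replicate 2 the comparison with PBS called 4143 genes higher and 4725 lower, without RANKL + Vit D + K replicate 3 it called 2670 and 2350, and without PBS replicate 1 it called 2469 and 2297.

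**Figure D1:**
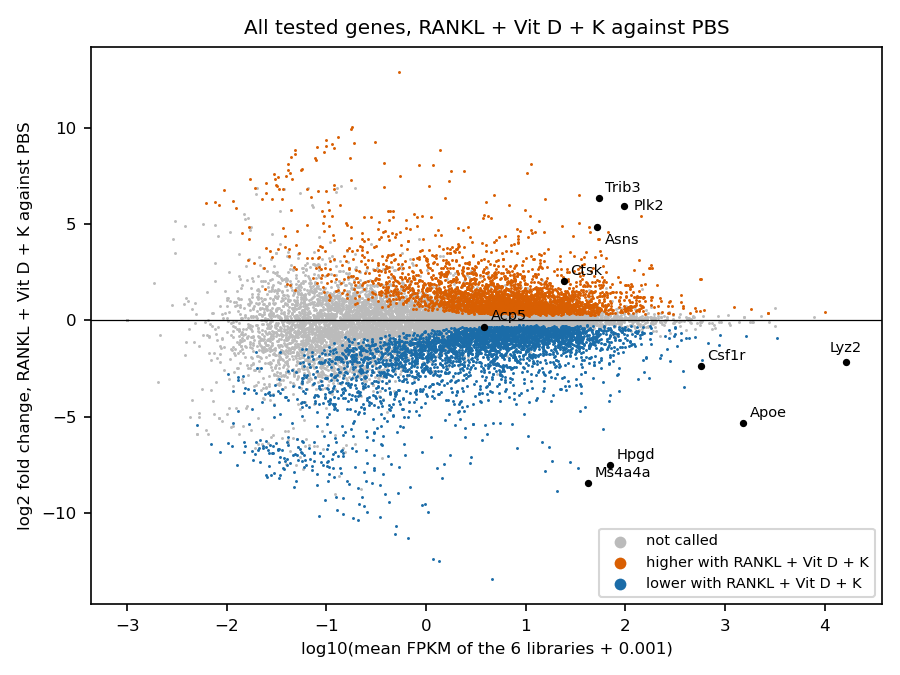
Log2 fold change of every tested gene in the RANKL + Vit D + K group against PBS (vertical axis) by the log10 of its mean FPKM over the 6 libraries plus 0.001 (horizontal axis), with 10 genes of the text marked. The 3368 higher and 3564 lower genes spread over the whole range of expression, from Lyz2 and Apoe at the right to genes below an FPKM of 0.1.

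Of the 400 genes that RANKL raised above PBS (2.35% of those tested), 254 were still above PBS with the vitamins, 109 were back to where they were no longer called against PBS and were called below RANKL, 22 were below PBS, and 15 fell in none of these sets. Of the 214 genes that RANKL lowered (1.26%), 154 stayed below PBS, 39 returned, 14 were above PBS and 7 fell in none of the sets. Both comparisons use the same 3 PBS libraries, so these counts describe the sets and are not independent of each other, and the 400 and 214 genes rest on the RANKL count that 1 library can change. Among the 254 genes that stayed higher, the median log2 fold change against PBS was 1.53 with the vitamins and 1.47 with RANKL alone. Of those, 46 were higher again than RANKL alone, 42 were brought back in part, with medians of 2.08 with the vitamins and 4.01 with RANKL alone, and 166 were not called against RANKL. A further 4349 genes differed from both PBS and RANKL in the vitamin group without being called for RANKL against PBS, 2101 higher and 2248 lower. Another 2139 genes were called against PBS only. These counts depend on single libraries. The genes that remained numbered 90 to 133 without PBS replicate 1, PBS replicate 3, RANKL replicate 1 or RANKL replicate 2, 204 without PBS replicate 2, 221 without RANKL replicate 3, 263 without RANKL + Vit D + K replicate 3 and 963 without RANKL + Vit D + K replicate 2. Those lost numbered 31 to 38 in the same 4 fits, 66, 75 and 95 without PBS replicate 2, RANKL replicate 3 and RANKL + Vit D + K replicate 3, and 422 without RANKL + Vit D + K replicate 2. Those on the other side of PBS numbered 4 or 5 without RANKL replicate 1 or any PBS replicate, 22 without RANKL replicate 2, 15 without RANKL replicate 3, 16 without RANKL + Vit D + K replicate 3 and 365 without RANKL + Vit D + K replicate 2. The new genes numbered 2592 to 2834 without RANKL + Vit D + K replicate 3, RANKL replicate 1, RANKL replicate 3 or RANKL + Vit D + K replicate 1. The genes named from these sets kept their call against PBS, or their lack of one, in each of the 9 fits without 1 library, except where the text says otherwise. With a replicate block the RANKL call against PBS was lost, at an adjusted p of 0.0560 to 0.0723, for Adig, Aldh1l2, Calcr, Ctla2b, Ggt5, Mmp12, Mmp14, Rasgrp2 and Trf.

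The effector genes of the osteoclast, its proteases, proton pump, fusion and attachment genes, split in the vitamin group. Of 23 tested, 9 were above PBS and 3 below, with a median log2 fold change of 0.23, whereas RANKL alone raised 12 and lowered none, with a median of 1.5. Set against the 19.8% and 21.0% of all genes called higher and lower under the vitamins, the effectors held more of the first and fewer of the second, and RANKL alone raised 2.35% of all genes and lowered 1.26%. The effectors that RANKL alone raised numbered 6 without PBS replicate 1 or PBS replicate 3 and 8 to 15 without 1 of the other libraries. Ctsk, which encodes cathepsin K, the collagenase of bone resorption (ENSMUSG00000028111, chromosome 3, 95499256 to 95509362, plus strand), stood at 10.1, 11.4 and 7 FPKM with PBS, 251, 426 and 214 with RANKL and 32.6, 57.4 and 26 with RANKL and the vitamins. All 3 vitamin libraries lay above all PBS libraries and below all RANKL libraries (against PBS 2.02 ± 0.31 (SE), adjusted p = 0.00134). Mmp9, the gelatinase, went from 0.472, 0.253 and 0.0927 with PBS to 119, 228 and 67.2 with RANKL and 3.01, 6.85 and 1.89 with the vitamins (3.81 ± 0.67 (SE), adjusted p = 0.00249). Src, the kinase needed for the ruffled border, had 0.6, 0.444 and 0.595, then 13.3, 18.9 and 10.9, then 3.2, 2.53 and 2.19 (2.30 ± 0.25 (SE), adjusted p = 0.000373). These 3 genes kept a part of their RANKL-induced level that exceeded the spread between PBS libraries. Dcstamp, a receptor required for cell fusion, behaved in the same way at low levels, with 0.11, 0.906 and 0.283 FPKM with the vitamins and 0, 0.047 and 0 with PBS (4.51 ± 1.11 (SE), adjusted p = 0.0115).

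Other effectors were fully back at the PBS level or below it. Ocstamp, also a fusion gene, had 0.0108, 0.11 and 0 FPKM with the vitamins, 0.0173, 0.041 and 0 with PBS and 3.4, 5.82 and 1.74 with RANKL. Calcr, the calcitonin receptor, was at 0 counts in every PBS and vitamin library and at 120, 204 and 32 counts in the RANKL libraries. Acp5, encoding tartrate-resistant acid phosphatase, had 1.02, 7.86 and 1.56 with the vitamins and 4.06, 4.94 and 3.59 with PBS (-0.32 ± 0.58 (SE), adjusted p = 0.687), and the groups overlapped because of RANKL + Vit D + K replicate 2. Without that library Acp5 was below PBS, with a log2 fold change of -1.60 and an adjusted p of 0.00065. Mmp14, a membrane-bound collagenase, was raised by RANKL and fell below PBS with the vitamins, from 9.63, 4.71 and 6.93 to 0.916, 2.11 and 0.849 (-2.47 ± 0.34 (SE), adjusted p = 0.000921). The other 2 genes called below PBS were Plekhm1, whose call was lost in all 9 fits without 1 library, and Car2, whose call was lost in 6 of the 9.

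A further set of effectors was as high in the vitamin group as with RANKL alone, or higher. Itgb3, the beta-3 integrin that anchors osteoclasts to bone, rose from 0.937, 1.4 and 0.726 FPKM with PBS to 18.5, 3.83 and 12.3 with the vitamins (3.58 ± 0.58 (SE), adjusted p = 0.00178), against 2.6, 4.65 and 2.26 with RANKL. Atp6v1c1, a subunit of the proton pump's outer ring, rose from 24.4, 30.6 and 23.7 to 115, 56 and 94.9 (1.81 ± 0.28 (SE), adjusted p = 0.00137), while RANKL alone gave 35.5, 43 and 33.1. Both were lowest in replicate 2 of the vitamin group, where Itgb3 lay within the RANKL range. Atp6v0d2, a membrane subunit of the same pump, was not called against RANKL alone, with 38.8, 12.4 and 22 FPKM against 31.3, 45.1 and 22.3 with RANKL and 3.56, 4.4 and 2.96 with PBS (2.81 ± 0.44 (SE), adjusted p = 0.00148 against PBS and -0.23 ± 0.41, adjusted p = 0.701, against RANKL).

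Of the 21 tested regulators of osteoclast formation, 3 were above PBS and 11 below, with a median of -0.36. Of all genes 19.8% were higher and 21.0% lower, so the share of regulators that rose was below that of all genes. RANKL alone raised 2 and lowered 2, against 2.35% and 1.26%, and without 1 library it raised 0 to 5 and lowered 1 to 7, the most without RANKL + Vit D + K replicate 2. Csf1r, the M-CSF receptor, fell from 1056, 832 and 1005 FPKM to 136, 221 and 192 (-2.39 ± 0.22 (SE), adjusted p = 0.000236), below the 627, 412 and 594 of RANKL alone. Prdm1, encoding BLIMP1, a repressor that lifts the brakes on osteoclast genes, fell from 6.08, 5.07 and 6.14 to 0.525, 0.766 and 0.622 (-3.16 ± 0.18 (SE), adjusted p = 6.5e-05). Tyrobp, the ITAM adaptor DAP12, fell from 963, 919 and 975 to 352, 528 and 358 (-1.20 ± 0.17 (SE), adjusted p = 0.000917). The 3 that rose were Id2 (from 13.6, 35 and 14.5 to 114, 66.2 and 109), an inhibitor of helix-loop-helix factors, Junb, an AP-1 subunit (1.27), and Traf3, which restrains the noncanonical NF-kB pathway (0.86). Nfatc1, the master factor of osteoclast formation, was called higher with RANKL alone and lower than PBS with the vitamins, from 9.92, 9.26 and 9.19 to 6.41, 7.48 and 6.44 (-0.46 ± 0.12 (SE), adjusted p = 0.0171), though the call was lost in 5 of the 9 fits that left out 1 library, with an adjusted p of up to 0.105 without PBS replicate 1. Fos, whose product starts the NFATc1 program, had 17.4, 27.9 and 8.12 with PBS and 0.64, 59.7 and 0.404 with the vitamins, so that replicate 2 was the highest of the 6 libraries and the other vitamin libraries the lowest (0.08 ± 1.43 (SE), adjusted p = 0.969). Without replicate 2 its log2 fold change was -4.97, with an adjusted p of 0.00169. Leaving out 1 library moved the number of regulators below PBS to 6 without RANKL + Vit D + K replicate 3 and to 7 without PBS replicate 1, PBS replicate 3 or RANKL + Vit D + K replicate 1. Without RANKL + Vit D + K replicate 2, 5 regulators were higher and 13 lower.

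A RANKL response remained at 408 genes. Ass1, argininosuccinate synthase, which makes the precursor of arginine, rose from 0.866, 1.18 and 0.865 FPKM with PBS to 15.1, 27.4 and 19.5 with RANKL and 18.4, 27.7 and 20 with the vitamins (4.51 ± 0.24 (SE), adjusted p = 5.63e-05). Its RANKL and vitamin libraries overlapped. Vegfc, a lymphatic growth factor, had 3 counts over the PBS libraries together, and its level with the vitamins was 204 (95% interval for counting error 69.4 to 990.0) times as high, at 0.98, 1.51 and 0.786 FPKM against 1.39, 4.81 and 1.75 with RANKL. Nkain1, which encodes a partner of the sodium pump, had 0.996, 2.38 and 1.36 FPKM with the vitamins and was detected in 1 PBS library. Tmem158 also stayed up, with 3.01, 1.8 and 2.21 FPKM against 0.236, 0.0291 and 0.0588 with PBS.

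Other members of this set were raised by RANKL, and some were higher again with the vitamins. Myc, the growth-promoting transcription factor, had 0.217, 0.636 and 0.345 FPKM with PBS, 4, 14 and 2.57 with RANKL and 48.1, 18.5 and 25 with the vitamins (6.30 ± 0.79 (SE), adjusted p = 0.000625 against PBS). Aldh1l2, a mitochondrial enzyme of one-carbon metabolism, had 0.0212, 0.035 and 0.0552, then 0.131, 0.384 and 0.105, then 3.35, 3.18 and 2.59. Flrt2, a cell-surface guidance protein, had 0.536, 0.294 and 0.315, then 1.83, 4.52 and 1.7, then 26.7, 10.9 and 20.9. All 3 genes were called against RANKL as well. Il1rn, the interleukin-1 receptor antagonist, rose from 0.964, 0.748 and 0.654 to 26.6, 8.26 and 12.9 (4.40 ± 0.46 (SE), adjusted p = 0.000346), with 6.22, 8.21 and 5.52 under RANKL, and it was also called against RANKL (adjusted p = 0.0238). Cd200, the ligand of an inhibitory receptor on myeloid cells, had 14.1, 2.05 and 7.58 FPKM with the vitamins and 2.96, 4.2 and 1.91 with RANKL, and these groups overlapped and were not called against each other (adjusted p = 0.0761).

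The genes that stayed below PBS included 2 apolipoproteins, and each of the 10 with the largest falls was lower again than with RANKL. Apoe, the lipid carrier that macrophages secrete (ENSMUSG00000002985, chromosome 7, 19696109 to 19699188, minus strand), fell from 3267, 2074 and 3570.2 FPKM with PBS to 752, 216 and 845 with RANKL and 66.8, 73.9 and 78.2 with the vitamins (-5.33 ± 0.53 (SE), adjusted p = 0.000292). Apoc2, its neighbour and the cofactor of lipoprotein lipase, had 66.4, 55 and 77.6, then 16.1, 5.57 and 16.4, then 0.165, 0.569 and 0.221. F13a1, the coagulation factor XIII A chain, had 40.8, 36.7 and 31.2, then 4.6, 2.54 and 3.81, then 0.122, 0.445 and 0.121. Fcrls, a scavenger-type receptor of microglia and macrophages, Trf, transferrin, Cd177, Rasgrp2, Ctla2b, Slit1 and Ggt5 followed with log2 fold changes of -7.36, -4.72, -7.43, -4.34, -3.96, -3.73 and -3.65.

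The RANKL response was lost at 148 genes. Scin, the actin-severing protein scinderin, had 2.37, 4.92 and 1.37 FPKM with RANKL, 0, 0.016 and 0 with PBS and 0.0167, 0 and 0 with the vitamins. Adig was at 0 counts in all 6 PBS and vitamin libraries and at 1.68, 0.905 and 1.46 FPKM with RANKL. Mycl, a relative of Myc, had 2.2, 5.8 and 1.36 with RANKL and 0, 0.11 and 0 with the vitamins, the opposite outcome to Myc. Mst1r, the receptor of macrophage-stimulating protein, had 2.05, 3.59 and 1.34 with RANKL and 0, 0.115 and 0 with the vitamins, all of it in replicate 2. Oscar, the collagen receptor that costimulates osteoclasts, had 0, 0.063 and 0 with the vitamins and 0, 0.0267 and 0.0385 with PBS. In Mycl, Mst1r and Oscar, replicate 2 held all the reads of the vitamin group.

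Among genes that RANKL lowered and that returned, Rhod, a small GTPase of endosome motility, had 1.2, 1.59 and 1.1 FPKM with PBS, 0.277, 0.335 and 0.167 with RANKL and 1.97, 1.03 and 1.48 with the vitamins. P4ha2, a collagen prolyl hydroxylase, had 2.35, 2.11 and 2.85, then 0.679, 0.72 and 1.04, then 2, 2.77 and 2.75. Hmox1, which encodes heme oxygenase 1, had 215, 262 and 264, then 147, 128 and 107, then 259.7, 271 and 218 (against PBS 0.04 ± 0.15 (SE), adjusted p = 0.862). In each of the 3, the PBS and vitamin libraries overlapped. Slc40a1, the iron exporter ferroportin, was back at 40.5, 15.7 and 36.9 from 13.2, 9.75 and 12.6, with PBS at 35.4, 52.4 and 54.6, and replicate 2 of the vitamin group was the lowest.

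At 36 genes the vitamin group lay on the other side of PBS from RANKL. Trib3, a pseudokinase induced by ATF4 and CHOP (ENSMUSG00000032715, chromosome 2, 152337422 to 152344032, minus strand), had 1.41, 1.39 and 1.27 FPKM with PBS, 0.375, 0.725 and 0.721 with RANKL and 123, 87.4 and 114 with the vitamins (6.34 ± 0.30 (SE), adjusted p = 3.1e-05 against PBS). Slc6a9, a glycine transporter, had 3.01, 2.37 and 2.94, then 0.741, 1.16 and 0.838, then 8.06, 7.73 and 6.8 (1.46 ± 0.18 (SE), adjusted p = 0.000625). Pck2, the mitochondrial PEP carboxykinase, had 6.95, 8.46 and 7.93, then 3.85, 4.81 and 4.68, then 17.6, 20.7 and 16.9 (1.26 ± 0.12 (SE), adjusted p = 0.000236). Mmp12, the macrophage elastase, had 12.3, 15.5 and 12.5, then 6.88, 8.01 and 7.65, then 95, 55.8 and 79.1 (2.56 ± 0.23 (SE), adjusted p = 0.000222). Procr, the protein C receptor, rose against PBS by 1.26.

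In the other direction, beside Mmp14, Vcan, the matrix proteoglycan versican, had 6.07, 6.41 and 8.26 FPKM with PBS, 17.3, 12.1 and 19.1 with RANKL and 2.03, 3.5 and 2.45 with the vitamins (-1.38 ± 0.23 (SE), adjusted p = 0.00204). Ppargc1b, the coactivator of mitochondrial biogenesis in osteoclasts, had 1.49, 1.2 and 1.01, then 3.91, 4.24 and 3.4, then 0.588, 0.575 and 0.34 (-1.27 ± 0.25 (SE), adjusted p = 0.00389). P2ry14, a receptor for UDP-sugars, fell by 0.90 on the log2 scale, and the call was lost in 3 of the 9 fits that left out 1 library, with an adjusted p of up to 0.0603 without RANKL + Vit D + K replicate 3. Slc5a3, the inositol transporter, fell by 0.87 on the log2 scale, and the call was lost in 1 of the 9 fits that left out 1 library, with an adjusted p of up to 0.0758 without PBS replicate 3.

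**Figure D2:**
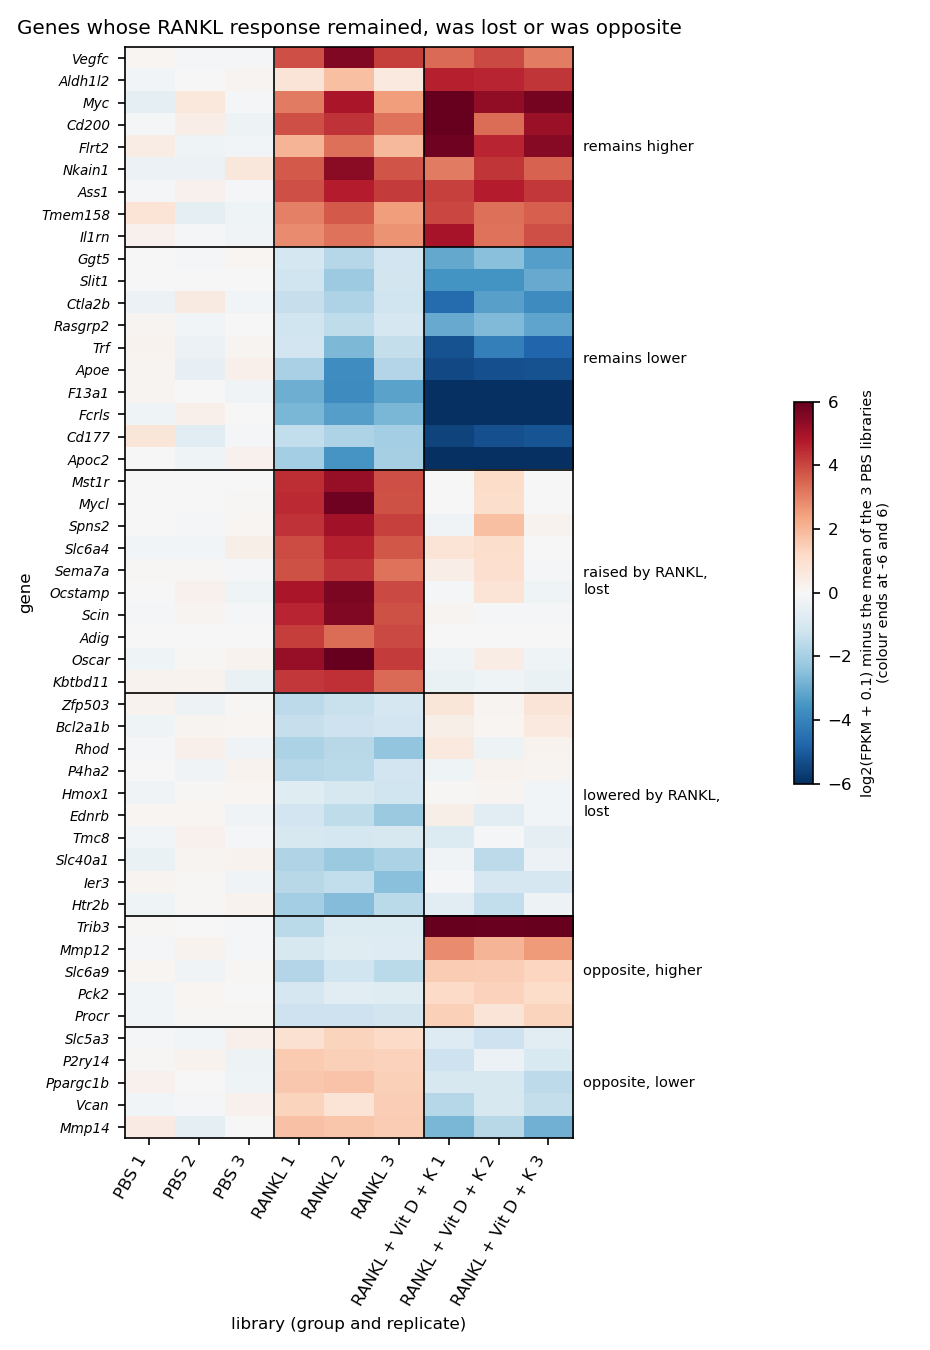
Colour map of log2(FPKM + 0.1) in each of the 9 libraries (columns), minus the mean of the 3 PBS libraries, for genes with the largest changes among those remaining, lost or opposite (rows), 1 of them left out. Red is above PBS and blue below, with the scale ending at -6 and 6. The vitamin libraries lie on the same side of PBS as the RANKL libraries in the upper blocks. They lie mostly near PBS in the middle blocks and on the other side of PBS from RANKL in the lowest. Rows that remained lower are further below PBS with the vitamins than with RANKL, and some that remained higher are further above it.

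The largest rises among genes not called for RANKL against PBS were mostly in genes near silence in PBS cells. A lack of a call does not show that RANKL left them unchanged. Sh2d6, an SH2-domain protein, had 2 counts over the 3 PBS libraries and was 529 (95% interval for counting error 146 to 4370.0) times as high with the vitamins, at 3.17, 2.07 and 3.03 FPKM. Aqp9, a channel for glycerol and water, rose from 0.047, 0.176 and 0.0287 to 24.9, 19.6 and 23.5 (8.10 ± 0.85 (SE), adjusted p = 0.000341), and with RANKL it had 0.139, 0.787 and 0.177 (1.96 ± 0.73 (SE), adjusted p = 0.19). Cox6a2, the heart and muscle form of a cytochrome c oxidase subunit, rose from 0, 0.109 and 0.182 to 28.9, 8.81 and 23.5 (7.63 ± 0.85 (SE), adjusted p = 0.000391). Plk2, a kinase of the cell cycle and stress response (ENSMUSG00000021701, chromosome 13, 110395046 to 110400844, plus strand), reached the highest level of the set, from 3.21, 3.86 and 2.54 to 297, 52.7 and 215 (5.96 ± 0.64 (SE), adjusted p = 0.000373). Rgs1, which shortens G protein signalling, rose from 0.624, 1.04 and 0.644 to 111, 18.7 and 71.4 (6.52 ± 0.71 (SE), adjusted p = 0.000384). For Plk2 and Rgs1, replicate 2 of the vitamin group was the lowest of its 3 libraries.

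Mreg, melanoregulin, an organelle transport protein, rose from 0, 0.0416 and 0.022 to 8.62, 0.973 and 4.89. Gem, a small GTPase that blocks calcium channels, rose from 0.0199, 0.0385 and 0 to 5.83, 0.552 and 3.66. Ccbe1, a secreted protein that helps to activate VEGFC, was at 0 counts with PBS and at 1259, 270 and 1057 counts with the vitamins, at least 301-fold higher. Cdca7, a Myc and E2F target, rose by 5.97 and Gbp8, a guanylate-binding protein, by 6.49, with differences of 2.27 (adjusted p = 0.113) and 2.82 (adjusted p = 0.0977) for RANKL against PBS.

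The largest falls among genes not called for RANKL against PBS reached genes with no read left. Il1b, the inflammatory cytokine interleukin-1 beta, had 735, 196 and 2954 counts in the PBS libraries and 0 in each vitamin library, at least 434-fold lower. Its PBS level varied widely between libraries, and with RANKL it had 0.992, 0.213 and 3.4 FPKM against 5.22, 1.36 and 20.7 with PBS, a difference of -2.67 with an adjusted p of 0.296, or 0.00597 with a replicate block. Ms4a4a, a membrane protein of macrophages, fell from 95.5, 67.7 and 89.7 FPKM to 0.253, 0.272 and 0.169 (-8.44 ± 0.80 (SE), adjusted p = 0.000236). Fpr1, the receptor for formylated bacterial peptides, fell from 47.7, 24.8 and 51.4 to 0.0376, 0.222 and 0 (-8.85 ± 0.83 (SE), adjusted p = 0.000236). Hpgd, which degrades prostaglandins, fell from 142, 122 and 159 to 0.43, 1.42 and 0.506 (-7.50 ± 0.60 (SE), adjusted p = 0.000154). Gpr34, a receptor of microglia and macrophages, fell from 3.24, 2.68 and 3.21 to 0, 0.0489 and 0, and it was detected in replicate 2 alone of the vitamin group. Plxdc2 fell from 2.67, 2.44 and 2.51 to 0, 0 and 0.0359. Jaml, an adhesion molecule of leukocytes, was at 0 with the vitamins and at least 100.1-fold lower, and Apoc1 at least 19.7-fold lower.

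Ltf, Camp and S100a9, also among the largest falls, are granule and calcium-binding proteins of neutrophils. Of 11 tested markers of neutrophils and their precursors, 7 were lower with the vitamins and none higher, against 21.0% and 19.8% of all genes. Leaving out 1 library gave 5 to 8 lower, and limma on log2(FPKM + 1) or voom with sample quality weights gave 4. Their summed FPKM was 11.7 to 131 in the PBS libraries, 12.5 to 152 in the RANKL libraries and 0.629 to 2.95 in the vitamin libraries. Ltf, lactoferrin, had 2.86, 4.86 and 0.308 FPKM with PBS and 0 with the vitamins, at least 226-fold lower. S100a9 had 32.7, 56.5 and 3.98 and 0, 0.375 and 0. PBS replicate 3 held the least of these transcripts and replicate 2 the most. In bulk RNA, fewer cells of a type and less RNA per cell cannot be told apart. The part of these transcripts in the other results was not tested. Of the 4 tested markers of stromal cells and osteoblasts, Runx2, the osteoblast factor, was higher with the vitamins (0.776, 0.863 and 1.01 FPKM with PBS and 1.54, 1.21 and 1.76 with the vitamins, 0.80 ± 0.21 (SE), adjusted p = 0.015), and the collagen genes Col1a1 (0.135, 0.0225 and 0.104 and 0, 0.00559 and 0) and Col1a2 were lower, the call of Col1a2 being lost without PBS replicate 1, PBS replicate 3 or RANKL + Vit D + K replicate 1. The summed FPKM of this list was higher with the vitamins, at 1.36 to 1.79 against 0.980 to 1.31 with PBS, with Alpl at 0 in both groups, Bglap and Lepr at 0 with PBS, and Sp7 and Cxcl12 at 0 with the vitamins. Of the T and NK cell markers only Klrb1c had a row in the table, and it was called higher, at 0 counts with PBS and 21, 4 and 8 with the vitamins, at least 3.86-fold higher. Markers of megakaryocytes and platelets summed to 6.62 to 33.2 FPKM with PBS and 10.6 to 18.8 with the vitamins, and of the 3 tested, Itga2b was lower, a call lost in 7 of the 9 fits without 1 library. Most of that sum was Pf4, platelet factor 4 (5.55, 29.7 and 7.78 and 10.4, 18.4 and 15.2, 0.06 ± 0.66 (SE), adjusted p = 0.956). Markers of dendritic cells summed to 0.112 to 0.344 with PBS and 0.0315 to 0.181 with the vitamins, with none of 5 tested called, and those of B cells to 0.380 to 0.514 and 0 to 0.0485, with the 1 tested lower. The part of these other cell types in the results was not tested.

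The genes of the ATF4-CHOP stress response rose together in the vitamin group. Of 26 tested, 24 were above PBS and none below, against a background of 19.8%, with a median log2 fold change of 3.05. With RANKL alone none was higher and 2 were lower by edgeR, with a median of -0.03, and with a replicate block 2 were higher and 3 lower. DESeq2 called 4 higher and 4 lower with RANKL, and voom with sample quality weights 3 higher and 8 lower. Without RANKL + Vit D + K replicate 2 those lower with RANKL numbered 8. In the fits that left out 1 library, 24 or 25 were higher. Its own factors were included. Atf4 rose from 49.7, 50.5 and 49.9 FPKM to 408, 216 and 343 (2.74 ± 0.27 (SE), adjusted p = 0.000262), and Ddit3, which encodes CHOP, from 5.43, 5.06 and 6.14 to 122, 68.7 and 113 (4.23 ± 0.27 (SE), adjusted p = 9.62e-05). Both were lowest in replicate 2 among the vitamin libraries and above every PBS library by a wide margin.

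Several targets for amino acid supply were among the genes that rose. Asns, asparagine synthetase, rose from 2.56, 3.82 and 4.36 to 103, 99.6 and 95.8 (4.82 ± 0.48 (SE), adjusted p = 0.000271). Phgdh, the first enzyme of serine synthesis, rose from 0.791, 1.67 and 1.19 to 25.2, 36.4 and 25.4 (4.59 ± 0.50 (SE), adjusted p = 0.000385). Slc7a5, a transporter of large neutral amino acids, rose from 1.29, 1.81 and 1.35 to 32.4, 61 and 40.7 (4.91 ± 0.46 (SE), adjusted p = 0.000236). Slc7a11, the cystine importer, rose from 7.71, 6.47 and 13.2 to 81, 43.5 and 80.5 (2.95 ± 0.43 (SE), adjusted p = 0.00109). Chac1, which breaks down glutathione, rose from 0.481, 0.336 and 0.841 to 5.69, 35.5 and 6.26 (4.76 ± 0.83 (SE), adjusted p = 0.00246), and here replicate 2 was the highest vitamin library. Ddit4 (1.42, 3.96 and 0.49 FPKM with the vitamins, 0.611, 0.546 and 0.92 with PBS) and Pycr1 (0.375, 0.708 and 0.401 and 0.142, 0.141 and 0.144) were the 2 members not called.

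Of the 20 cytosolic aminoacyl-tRNA synthetases, which load amino acids onto tRNA and of which several are ATF4 targets, 18 rose and none fell. This compares with 19.8% of all genes that rose, and the median was 1.77. The same count of 18 was found in every fit that left out 1 library. RANKL alone raised 1 by edgeR, or none with a replicate block. DESeq2 called 3 higher with RANKL, and voom with sample quality weights 3 higher and 2 lower. Aars (alanine) rose from 8.6, 9.44 and 9.34 FPKM to 62.6, 48.5 and 60.5 (2.68 ± 0.21 (SE), adjusted p = 0.000141) and Gars (glycine) from 20.3, 20 and 19.5 to 83.5, 85.5 and 83 (2.10 ± 0.17 (SE), adjusted p = 0.000154). Farsa (phenylalanine, 7.02, 6.65 and 7.74 and 7.98, 9.45 and 8.08) and Qars (glutamine, 27.6, 27.4 and 27.2 and 23.9, 23.2 and 23.7) were not called. Of 18 chaperones and folding enzymes of the endoplasmic reticulum, 14 rose and none fell, also against 19.8%, with a smaller median of 0.65. Hspa5, the chaperone BiP, rose from 92.1, 91 and 94.5 to 400.4, 208 and 352 (1.84 ± 0.26 (SE), adjusted p = 0.000904), Sel1l, of the degradation machinery, by 1.47, and Hyou1 by 1.38. Xbp1, the factor of the unfolded protein response, had 76.4, 72.6 and 79.2 with PBS and 80.8, 63.3 and 75.3 with the vitamins (-0.02 ± 0.18 (SE), adjusted p = 0.936).

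The 250 bases before the annotated start of 3 of these genes are printed to show the C/EBP-ATF response element, the composite site that ATF4 and C/EBP factors bind, searched here as TGATGNAA on both strands. The sequences are RefSeq's for GRCm38.p6, in the direction of transcription. Capitals mark the matches, in reverse complement where they lie on the other strand.
Asns chr6:7693210-7693459, minus strand: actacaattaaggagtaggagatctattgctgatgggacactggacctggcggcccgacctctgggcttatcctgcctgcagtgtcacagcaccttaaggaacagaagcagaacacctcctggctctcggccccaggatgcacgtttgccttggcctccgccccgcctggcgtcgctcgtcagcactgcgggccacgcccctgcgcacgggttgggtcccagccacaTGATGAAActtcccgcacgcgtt
Chac1 chr2:119350992-119351241, plus strand: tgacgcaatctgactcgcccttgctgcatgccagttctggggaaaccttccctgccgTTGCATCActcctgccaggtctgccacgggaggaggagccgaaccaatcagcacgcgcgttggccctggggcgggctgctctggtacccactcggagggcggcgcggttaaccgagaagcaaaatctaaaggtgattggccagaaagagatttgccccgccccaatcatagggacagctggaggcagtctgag
Slc7a11 chr3:50443614-50443863, minus strand: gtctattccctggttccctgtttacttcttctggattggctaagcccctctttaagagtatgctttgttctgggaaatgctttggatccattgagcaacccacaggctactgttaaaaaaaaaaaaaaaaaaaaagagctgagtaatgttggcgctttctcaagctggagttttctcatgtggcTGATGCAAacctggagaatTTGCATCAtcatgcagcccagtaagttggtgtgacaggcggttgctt
The element stood in 1134 of the 32851 mouse promoter windows searched (3.45%), which left out a chromosome. It stood in 7 of the 28 windows of the stress response list (25%) and in 3 of the 13 windows of the synthetases (23.1%). These windows covered 23 of the 26 tested stress response genes and 13 of the 20 synthetases. The match in Asns lies 23 to 16 bases before the start, and Slc7a11 has 2 matches within 66 bases of it. The window of Trib3, the gene of the list with the largest fold change, has none. A match describes the letters, and binding was not measured.

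Genes of DNA replication rose as well. Of 26 tested, 21 were above PBS and none below, against 19.8% of all genes higher, with a median of 2.01, and the 26 fold changes were all positive. With RANKL alone none was called by edgeR, though the median was 1.39. For RANKL against PBS, DESeq2 called 14 higher and voom with sample quality weights 8. With a replicate block, 10 were called higher for RANKL against PBS, where same-numbered libraries deviated together, with a median of 1.21. Mcm3, of the replicative helicase, rose from 3.62, 5.08 and 3.13 FPKM to 18.7, 24.8 and 18.7 (2.41 ± 0.45 (SE), adjusted p = 0.00327), Pcna, the sliding clamp, from 22.3, 30.6 and 23.7 to 55.1, 91.1 and 54.9 (1.40 ± 0.34 (SE), adjusted p = 0.0106), and Cdt1, a licensing factor, from 4.74, 4.75 and 4.43 to 19.4, 17 and 17.4 (1.98 ± 0.21 (SE), adjusted p = 0.000379). Replicate 2 was the highest library of each group for Mcm3 and Pcna. Cdt1 was the 1 gene of the list also called above RANKL alone (1.45). Without PBS replicate 1 or PBS replicate 3, 13 replication genes were called.

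Of 21 mitosis genes, 9 were called above PBS, against 19.8% of all genes, with a median of 2.0. With RANKL alone none was called, with a median of 1.17, and 3 were called higher with a replicate block. This count depends on single libraries. Top2a, topoisomerase II alpha, had 1.27, 11.4 and 1.83 FPKM with PBS, 7.14, 41.8 and 9.46 with RANKL and 33.1, 47.9 and 38.4 with the vitamins (3.07 ± 0.90 (SE), adjusted p = 0.0237), so that PBS replicate 2 was several times the other PBS libraries. Bub1, a spindle checkpoint kinase, had 0.985, 5.51 and 0.897, then 3.64, 16.4 and 4.99, then 19.4, 25.1 and 20.5 (3.17 ± 0.77 (SE), adjusted p = 0.0108), and Mki67, which encodes the proliferation antigen Ki-67, had 9.3, 31.5 and 8.14, then 15.5, 65.9 and 21.6, then 49.8, 75.1 and 68.5 (2.01 ± 0.61 (SE), adjusted p = 0.0273). All 21 genes were called with a replicate block and also without PBS replicate 2, 2 without RANKL + Vit D + K replicate 3, and only Bub1 without PBS replicate 1 or PBS replicate 3. No gene of either list was called lower against PBS with the vitamins in any of these fits.

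Interferon-stimulated genes fell below the level of resting macrophages. Of 22 tested, 21 were lower with the vitamins and none higher, against a background of 21.0%, with a median of -2.75. With RANKL alone none was called by edgeR, with a median of 0.38, and 2 were called higher without RANKL replicate 2 or RANKL + Vit D + K replicate 2. With all libraries DESeq2 called 2 higher for RANKL against PBS and voom with sample quality weights 7. In every fit that left out 1 library, 21 or 22 were lower. Mx1, an antiviral GTPase, was detected in 1 vitamin library and fell from 4.19, 2 and 2.4 FPKM to 0, 0 and 0.026 (-8.18 ± 0.99 (SE), adjusted p = 0.00054). Ifit3, an RNA-binding antiviral protein, fell from 10.5, 6.79 and 6.89 to 0.0853, 0.231 and 0.0663 (-5.92 ± 0.67 (SE), adjusted p = 0.000417), and Isg15, a ubiquitin-like modifier, from 13.3, 8.04 and 8.03 to 1.3, 1.54 and 1.24 (-2.81 ± 0.39 (SE), adjusted p = 0.000898). No vitamin library reached the lowest PBS value in these genes. The signalling components Irf7, Irf9 and Stat2 fell by 2.46, 1.80 and 1.16 on the log2 scale, less than Mx1, Ifit3 and Isg15. Oas1a (16.4, 13.8 and 15.6 with PBS and 10.5, 11.7 and 10.7 with the vitamins) was the member not called.

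The windows before the start of 3 of these genes are printed to show the interferon-stimulated response element, which interferon-activated transcription factors bind, searched as GAAA, any 2 bases and GAAA on both strands. Capitals mark the matches, here all in reverse complement, in RefSeq's sequences for GRCm38.p6.
Ifit3 chr19:34583279-34583528, plus strand: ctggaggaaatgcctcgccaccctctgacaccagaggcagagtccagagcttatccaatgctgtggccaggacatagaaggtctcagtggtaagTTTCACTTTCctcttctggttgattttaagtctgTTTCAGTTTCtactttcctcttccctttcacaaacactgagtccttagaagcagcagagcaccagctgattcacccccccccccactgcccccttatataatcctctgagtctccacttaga
Ifit1 chr19:34640639-34640888, plus strand: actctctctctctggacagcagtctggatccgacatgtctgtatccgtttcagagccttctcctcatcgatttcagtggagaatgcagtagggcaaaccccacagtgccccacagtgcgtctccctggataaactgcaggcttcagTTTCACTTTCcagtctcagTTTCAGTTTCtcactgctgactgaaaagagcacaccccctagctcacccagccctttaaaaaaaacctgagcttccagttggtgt
Gbp2 chr3:142620413-142620662, plus strand: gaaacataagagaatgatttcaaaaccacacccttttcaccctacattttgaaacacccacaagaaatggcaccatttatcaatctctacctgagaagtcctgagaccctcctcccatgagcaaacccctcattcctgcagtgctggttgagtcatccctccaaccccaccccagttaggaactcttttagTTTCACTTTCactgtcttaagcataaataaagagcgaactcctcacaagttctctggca
The element stood in 978 of the same 32851 promoter windows (2.98%) and in 10 of the 20 windows of the interferon list (50%), which covered 18 of its 22 genes. Ifit3 and Ifit1 have 2 matches each and Gbp2 has 1. These 3 genes fell by 5.92, 5.36 and 4.37 on the log2 scale.

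Genes of MHC class II presentation fell too, 9 of 10 tested and none rising, against 21.0% of all genes that fell. These counts held with all libraries and in each fit without 1 library. The median was -2.67 with all libraries and -2.32 to -2.9 in those fits. Ciita, their master coactivator, fell from 5.27, 3.3 and 2.93 FPKM to 0.0491, 0.121 and 0.092 (-5.44 ± 0.54 (SE), adjusted p = 0.000284). H2-Eb1, a class II beta chain, fell from 13.5, 14.8 and 14.7 to 0.403, 1.16 and 0.942 (-4.08 ± 0.55 (SE), adjusted p = 0.00083). With RANKL alone no gene of this list was called by edgeR, though 3 were higher without RANKL replicate 2. With all libraries DESeq2 called 3 higher, and voom with sample quality weights 6 higher and 1 lower. H2-Eb1 had 43.2, 12.7 and 53.8 with RANKL, so that RANKL replicate 2 stood apart from the other RANKL libraries. H2-Oa, a chain of the class II chaperone H2-O, was the member not called. Cd74, the invariant chain, fell from 111, 73.5 and 92.1 to 13.1, 27.5 and 26.3 (-2.04 ± 0.47 (SE), adjusted p = 0.00809).

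**Figure D3:**
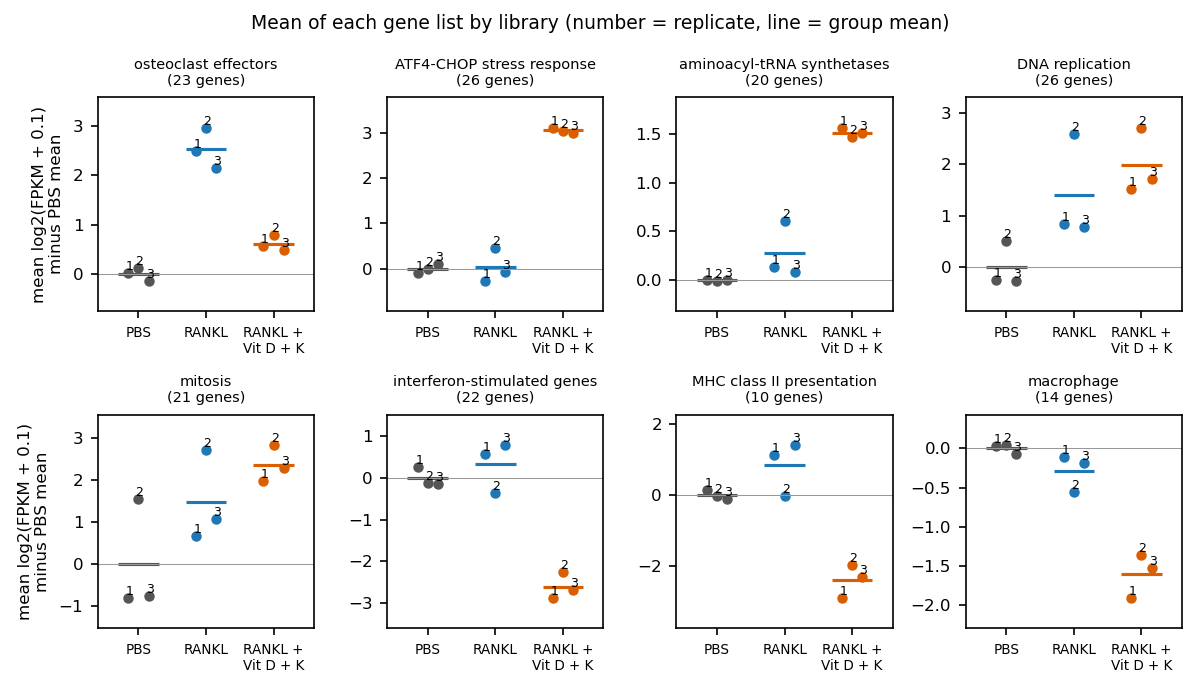
Mean of log2(FPKM + 0.1) over the tested genes of 8 lists in each library, minus the mean of the PBS libraries (vertical axis), by group (horizontal axis), with replicate numbers beside the points and a line at each group mean. The stress response list lies at 3.00 to 3.10 in the vitamin libraries and the interferon list at -2.88 to -2.25, while the mitosis list spreads from -0.80 to 1.56 within PBS.

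The labelled cell type was checked on 14 macrophage markers. All were present in all 9 libraries, but 11 were lower in the vitamin group than with PBS and 2 higher, against 21.0% and 19.8% of all genes, with a median of -1.77, and their summed FPKM was 28614 to 32799 with PBS and 6481 to 13059 with the vitamins. Lyz2, lysozyme, fell from 28239, 24181 and 27772 to 3189, 10168 and 4852 (-2.16 ± 0.35 (SE), adjusted p = 0.00171). Adgre1, the F4/80 antigen, fell from 506, 456 and 493 to 219, 249 and 251 (-0.99 ± 0.16 (SE), adjusted p = 0.00154). C1qa, C1qb and C1qc, the chains of complement C1q, fell by 2.81, 2.64 and 3.02 on the log2 scale. Cd68 (481, 568 and 463 with PBS, 789, 683 and 681 with the vitamins, 0.54 ± 0.13 (SE), adjusted p = 0.0106) and Lgals3, galectin-3 (968, 1019 and 880.3 and 1772, 1187 and 1525, 0.69 ± 0.19 (SE), adjusted p = 0.0199), were the 2 that rose. The part of these marker changes in the other results was not tested.

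Genes of lipid handling fell in part. Of 13 tested targets of the liver X receptor (LXR) and apolipoproteins, 7 were lower and 1 higher, against 21.0% and 19.8% of all genes, with a median of -1.48. Abca1, the cholesterol exporter, fell from 25.5, 23.6 and 25.5 FPKM to 3.94, 4.28 and 5.04 (-2.47 ± 0.19 (SE), adjusted p = 0.000134), and Pltp, a phospholipid transfer protein, from 48.2, 27.6 and 41.5 to 10.1, 16.8 and 11.4 (-1.61 ± 0.25 (SE), adjusted p = 0.00143). Lpl, lipoprotein lipase, was the 1 that rose, from 23.9, 29.3 and 14.8 to 64.6, 163 and 68.6 (2.11 ± 0.43 (SE), adjusted p = 0.00515), with replicate 2 the highest. Cholesterol synthesis genes had 11 of 21 lower and none higher, against 21.0% of all genes lower, with a median of -0.59. The number lower was 3 without PBS replicate 1 or RANKL + Vit D + K replicate 3, a share close to that of all genes in the same fits, and 6 without PBS replicate 3 or RANKL + Vit D + K replicate 1. Dhcr7 (-1.57 ± 0.32 (SE), adjusted p = 0.00459) and Pmvk (-1.36 ± 0.21 (SE), adjusted p = 0.00145), enzymes at the end and near the start of the pathway, were lower in each of those fits.

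Genes of vitamin D action moved in both directions. Cyp24a1, the catabolic enzyme of calcitriol, had 3, 0 and 0 counts in the PBS libraries and 39, 113 and 64 in the vitamin libraries, a ratio of 72 (95% interval for counting error 24.3 to 352), at 0.41 FPKM or less. Vdr, the vitamin D receptor, had 54, 140 and 69 counts with PBS and 4, 11 and 0 with the vitamins (-4.14 ± 0.90 (SE), adjusted p = 0.00646). Rxra, its partner, fell from 32.7, 33.8 and 38.4 FPKM to 11.2, 12 and 12.9 (-1.51 ± 0.18 (SE), adjusted p = 0.000542), and Cyp27a1, a sterol hydroxylase that can also act on vitamin D, from 34, 23.5 and 27.6 to 1.87, 3.11 and 2.38 (-3.52 ± 0.31 (SE), adjusted p = 0.000211). In this list of 8 tested genes 1 rose and 4 fell, against 19.8% and 21.0% of all genes, and without RANKL + Vit D + K replicate 2 or any 1 of the RANKL libraries 2 of 9 tested rose. Cyp27b1, which activates vitamin D and was too low to test, was at 0 counts with PBS and at 23, 6 and 24 with the vitamins, at least 6.15-fold higher.

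Of 11 tested genes of the vitamin K cycle and the Gas6-TAM system, 2 rose and 5 fell, against 19.8% and 21.0% of all genes. Gas6 fell from 247, 248 and 231 FPKM with PBS to 60.9, 44.4 and 63.8 with the vitamins (-2.06 ± 0.25 (SE), adjusted p = 0.000538), which did not differ by the test from RANKL alone (82.2, 51 and 80.8, difference -0.19 ± 0.24, adjusted p = 0.585). Its receptors Axl (4.16, 3.3 and 5.27 to 0.276, 0.495 and 0.329, -3.53 ± 0.32 (SE), adjusted p = 0.000226) and Mertk (31.3, 32.5 and 31.3 to 4.74, 7.49 and 7.39, -2.26 ± 0.21 (SE), adjusted p = 0.000226) fell below both other groups. Vkorc1l1, a vitamin K reductase, rose from 4.06, 2.76 and 4.21 to 9.94, 9 and 9.01 (1.36 ± 0.20 (SE), adjusted p = 0.00108). Ggcx, the gamma-carboxylase, had 4.25, 3.52 and 4.62 and 2.75, 3.94 and 3.22 (-0.31 ± 0.17 (SE), adjusted p = 0.162).

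Cytokine and chemokine genes were split, with 7 of 23 tested higher and 8 lower, against 19.8% and 21.0% of all genes. Ccl3 and Ccl4, chemokines for monocytes and T cells, rose from 62.9, 49.4 and 29 to 455, 116 and 324 (2.74 ± 0.53 (SE), adjusted p = 0.0039) and from 7.38, 10.4 and 4.19 to 90.3, 34 and 81.9 (3.30 ± 0.45 (SE), adjusted p = 0.000888). Ptgs2, cyclooxygenase 2, rose from 0.0692, 0.0691 and 0.0749 to 0.943, 1.37 and 1.45 (4.13 ± 0.38 (SE), adjusted p = 0.000236), and Il1a from 0.132, 0.124 and 0.137 to 1.65, 0.479 and 1.19 (3.09 ± 0.65 (SE), adjusted p = 0.00569), while Il1b was at 0. Il10, the anti-inflammatory cytokine, fell from 1.01, 1.42 and 0.758 to 0, 0.0644 and 0 (-5.47 ± 1.07 (SE), adjusted p = 0.00403), Il18 by 1.34, Cxcl16 by 1.24 and Ccl6 by 2.32 on the log2 scale. Tnf had 10.2, 6.92 and 6.37 with PBS and 1.93, 17 and 2.24 with the vitamins (-0.22 ± 0.81 (SE), adjusted p = 0.85), with replicate 2 above every PBS library and the other vitamin libraries below them.

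**Figure D4:**
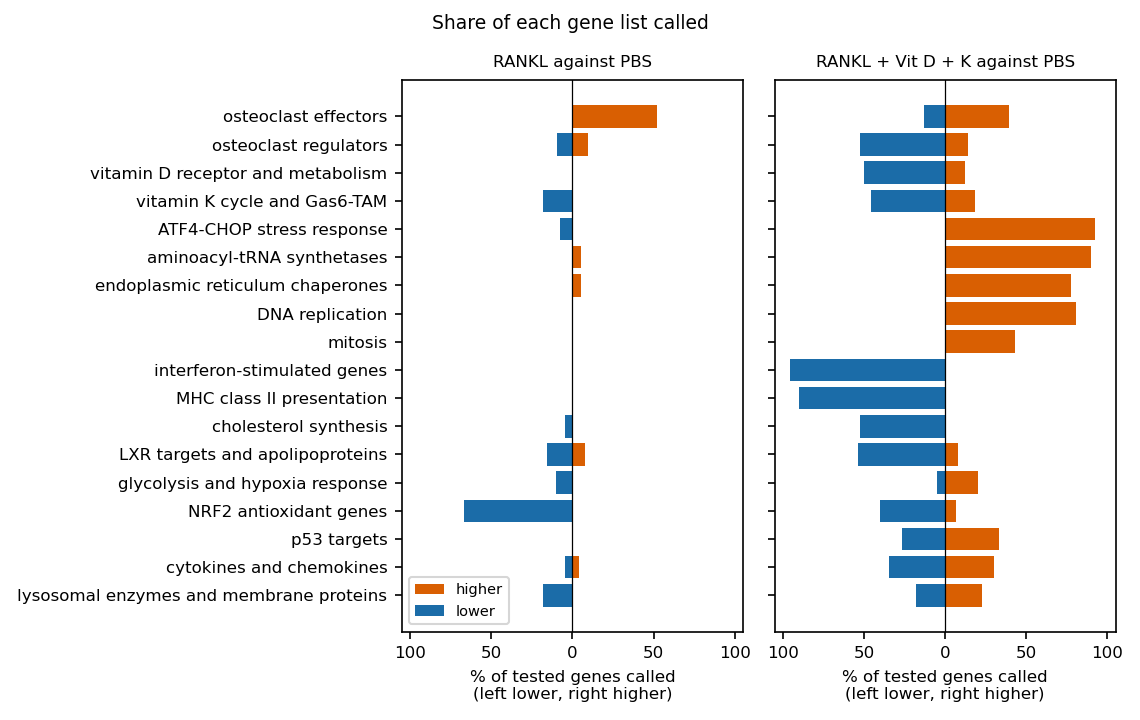
Share of the tested genes of each of 18 lists called higher (to the right) or lower (to the left) against PBS, for RANKL alone (left panel) and RANKL + Vit D + K (right panel), in percent. In the vitamin group the bars stand for 24 of 26 stress response genes, 18 of 20 synthetases, 21 of 22 interferon-stimulated genes and 9 of 10 MHC class II genes, and with RANKL alone for at most 2 genes of each of these lists.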

How the data were processed

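Total RNA of BMDMs, in 9 libraries with 3 in each of the PBS, RANKL and RANKL + Vit D + K groups, was sequenced as paired 150-base reads. The authors deposited 1 table of 28379 genes with a read count and an FPKM value for each library, and the counts were used as deposited. The FPKM values were computed by the authors and scale fragments to transcript length and library size. The submitters' processing notes name cutadapt 1.9, HISAT2 2.0.4, StringTie 1.3.4d and edgeR. They also name the human build hg38, whereas 28294 of the gene IDs are mouse genes of the GENCODE annotation of GRCm38, 25633 of them at the same position. How the counts were summed to genes is not given in the sources used here. Counts of 4 are more frequent than counts of 3 or 5, so low counts may not be single reads.

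Genes with enough counts for filterByExpr (17002, or 59.9%) were fitted in R 4.3.3 with edgeR 4.0.16, with TMM scaling, 1 quasi-likelihood model over all 9 libraries and Benjamini-Hochberg adjustment over all genes tested, two-sided. Adjusted p-values in the report come from this model, and SE is the log2 fold change divided by the square root of its F. Where a group had 0 counts in each library, a fold is a lower bound against 3 counts per library, and where it had 1 to 3 counts in all, a ratio with an exact 95% interval is given. These intervals cover counting error only. The script was tested on simulated data. Alternatives were DESeq2 1.42.0, other scaling and filters, the 6 libraries alone, limma 3.58.1 on log2(FPKM + 1) or log2(FPKM + 0.1), quality weights, a replicate block and leaving out each library. Replicate numbers, given in the labels for each group, were checked by the correlation of deviations from the group means. It was 0.122, 0.219 and 0.155 between same-numbered RANKL and PBS libraries, so by the data the numbers pair these groups, though no source says what a number marks. It was -0.0216, 0.0217 and 0.0237 between vitamin and PBS libraries and 0.00625, 0.0428 and 0.107 between vitamin and RANKL libraries. Unlike-numbered pairs gave -0.0346 to 0.0169 for vitamin and PBS, -0.0758 to 0.0130 for vitamin and RANKL and -0.144 to 0.00682 for RANKL and PBS. In both comparisons with the vitamin group, replicates 2 and 3 exceeded the unlike-numbered pairs. Replicate 1 did not, so no clear pairing was shown there.

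Named genes were members of fixed lists and, among protein-coding genes called without overlap of the libraries and averaging 1 FPKM or more where higher, the 15 largest rises and falls, the 10 largest per direction among genes that remained, were lost or were new, and up to 5 per direction among opposite genes. The comparison, the members and the lists were chosen with earlier results of these data known. Where 2 rows share a symbol (Ddit3), the row with more counts was used. List members with no row in the table were left out. A few genes that the rules select are not reported here.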

Additional observations from a re-analysis of the deposited data

How the results depend on the processing

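Against PBS, no gene called in both was called in opposite directions under any alternative, the share of called genes that were higher stayed between 46.5% and 53.5%, and the median of all genes between -0.08 and 0.04. Leaving out 1 library gave 2469 to 4143 genes higher and 2297 to 4725 lower, 90 to 963 that remained, 2592 to 6058 new, 31 to 422 lost and 4 to 365 opposite to RANKL, with the most genes in each case without RANKL + Vit D + K replicate 2. Voom with sample quality weights, which gave that library the lowest weight (0.142), called 5169 higher and 5730.0 lower, 1751 that remained, 7359 new, 635 lost and 526 opposite. DESeq2 gave 1039 that remained, 357 lost and 92 opposite. Fitting only the 2 groups of each comparison gave 804 that remained, 2623 new, 344 lost and 107 opposite. With no count filter 271 remained and 23 were opposite, and limma on log2(FPKM + 1) gave 247 lost. The cause of these differences was not tested. Of the named and listed genes, 224 of 283 called were called in every fit without 1 library. Fos reversed, to -4.82 with quality weights and -4.97 without RANKL + Vit D + K replicate 2, and without RANKL + Vit D + K replicate 3 it was 0.73. It was not called under any alternative but the first 2 of these.

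Same-numbered vitamin and PBS libraries showed no clear pairing over all genes, whereas same-numbered RANKL and PBS libraries deviated together. In the DNA replication and mitosis lists, replicate 2 had the highest mean of each group. A replicate block gave 3470.0 genes higher and 3571 lower, 6488 of them shared with the fit without a block, with 579 that remained, 4348 new, 181 lost and 43 opposite. For RANKL against PBS it called 825 genes against 614. None of these counts moved by over 1.5 times. Of the lists, it called 24 DNA replication genes against 21 and 21 mitosis genes against 9.

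With 3 libraries a group and a wide spread in the vitamin group, genes of small change were often not called, and genes below about 1 FPKM rest on few counts. The fold changes of genes at 0 in a group depend on the floor used. The design has no vitamin without RANKL, so no value here separates the vitamins' effect from their effect on the RANKL response.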

Other observations

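Other gene groups moved in both directions against PBS, where 19.8% of all genes were higher and 21.0% lower. Of 15 tested antioxidant genes under NRF2, RANKL alone lowered 10 and raised none, against 1.26% and 2.35% of all genes, with a median log2 fold change of -0.82, while with the vitamins 6 were below PBS and 1 above, with a median of -0.15. Srxn1, sulfiredoxin, was the 1 above, from 80, 75.1 and 95 FPKM to 144, 109 and 123 (0.62 ± 0.17 (SE), adjusted p = 0.0173), against 47.4, 55.6 and 45.2 with RANKL. Prdx1, peroxiredoxin 1, had 589.8, 570.0 and 628 with PBS, 374, 408 and 358 with RANKL and 566, 641 and 535 with the vitamins (-0.02 ± 0.10 (SE), adjusted p = 0.897). Pgd and G6pdx, of the pentose phosphate pathway, stayed below PBS, with -0.98 and -1.06. Without RANKL + Vit D + K replicate 2, 4 genes of this list were higher and 7 lower with the vitamins. Those lower with RANKL alone numbered 3 without PBS replicate 3, 4 without PBS replicate 1 or RANKL replicate 1, 6 without RANKL replicate 2 or RANKL replicate 3, 8 without PBS replicate 2 or RANKL + Vit D + K replicate 3 and 14 without RANKL + Vit D + K replicate 2.

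Glycolysis and hypoxia genes had 4 of 20 tested higher, a share close to the 19.8% of all genes, and 1 lower. Pfkp, a phosphofructokinase, rose from 4.8, 4.88 and 5.35 to 15.6, 19.3 and 16.5 (1.79 ± 0.13 (SE), adjusted p = 0.000129) and Pgk1, phosphoglycerate kinase, from 129, 142 and 145 to 275, 363 and 279 (1.15 ± 0.15 (SE), adjusted p = 0.000806). Replicate 2 had the highest Ldha among the vitamin libraries (97.3, 245 and 113, PBS 95.3, 97.7 and 104), and 10 genes of the list were higher without RANKL + Vit D + K replicate 1. Of 15 p53 targets, 5 were higher and 4 lower, against 19.8% and 21.0% of all genes. Mdm2, the p53 ubiquitin ligase, rose from 22.3, 24.2 and 25.6 to 80.2, 41.2 and 67.1 (1.44 ± 0.25 (SE), adjusted p = 0.00256), and Sesn1 fell from 28, 31.9 and 22.4 to 2.61, 5.05 and 1.83 (-3.12 ± 0.30 (SE), adjusted p = 0.000239). The p53 targets called higher numbered 1 without PBS replicate 1, 2 without PBS replicate 2, RANKL replicate 1 or RANKL + Vit D + K replicate 3, and 3 without PBS replicate 3, RANKL replicate 2, RANKL replicate 3 or RANKL + Vit D + K replicate 1, and without PBS replicate 3 the lower ones numbered 2. Of 22 lysosomal genes, 5 were higher and 4 lower, shares close to the 19.8% and 21.0% of all genes, with Gla, alpha-galactosidase, rising from 27.1, 39.4 and 31.7 to 93, 48.9 and 85.5 (1.27 ± 0.27 (SE), adjusted p = 0.0056) and Man2b1, lysosomal mannosidase, falling from 135, 136 and 135 to 43.6, 59.7 and 48.4 (-1.41 ± 0.17 (SE), adjusted p = 0.000566). Without RANKL + Vit D + K replicate 2, 8 lysosomal genes were higher.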
